A study of Mus musculus with 3 samples.

Results

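The T cell receptor alpha variable segments are the Trav rows of the gene tables, and they comprised 128 of the 32285 gene rows, chosen as every gene expression row whose symbol starts with Trav. Their usage was described as the share of cells that carried each segment, in CD4+ T cells from the kidney and spleen of lupus-prone mice with or without deletion of Ezh2, the histone methyltransferase of Polycomb repressive complex 2. All mice were Ezh2fl/fl on the MRL/lpr background, with the Cre line bred to it over 6 generations. Those called KO also carried CD4-Cre/ERT2, a Cre recombinase under the Cd4 promoter that acts once tamoxifen is given, and those called WT did not. Tamoxifen went to both genotypes by mouth at 300 mg/kg, from 10 weeks of age in a preventative model or from 14 weeks in a therapeutic one, until 24 weeks. Which start applied to which mouse is not given in the sources used here. Cells of 2 KO mice (KO1 and KO2) and 3 WT mice (WT1, WT2 and WT3) could be assigned, each mouse with a kidney and a spleen block of barcodes, which gave 10 blocks. The series concerns the entry of T cells into the kidney. Trav usage shows whether the same variable segments are used in both organs of a mouse and whether the genotypes differ in them. It does not show whether the receptors are the same.

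An alpha chain is made by joining 1 variable segment to 1 joining segment in the thymus, and it pairs with a beta chain made likewise. The joint is passed on at each division, so the descendants of 1 T cell share a segment, and a clone that has grown raises that segment's share. The alpha locus can rearrange on both chromosomes, so a T cell may transcribe a pair of alpha segments. In mice part of the locus is present in near-identical copies, whose names carry the letter d or n after the family number, and segments with DV in their name can also join to the delta locus. Reads from the 5′ end of transcripts cover the variable segment, which is why the gene tables can show it.

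The 10 blocks held 13337 cells, 4979 from kidney and 8358 from spleen, with between 219 (kidney KO2) and 2386 (spleen WT1) in a block and no barcode shared between blocks. Total counts lay between 900068 UMIs (molecular barcodes that count captured transcripts) in kidney KO2 and 10102765 in spleen WT1, and median UMIs per cell between 3187 and 3644.5. At least 98.2% of the cells of each block had a UMI of the 8 fixed CD4+ T cell markers (Cd3e, Cd3d, Cd3g, Cd247, Cd4, Trac, Trbc1 and Trbc2). Ezh2 lay between 52.3 and 70.9 CPM (UMIs scaled to the block total) in the 4 KO blocks and between 77.9 and 179 in the 6 WT blocks. WT3 stood apart from the other 4 mice in its Trav usage, as described below. Differences of single segments and of evenness that it moves by over 1.5 times are also given without it.

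A cell was taken to call a segment where that segment had at least 2 UMIs and more than any other Trav row. By this rule 6847 cells (51.3%) called a segment, 2301 from kidney and 4546 from spleen, and 324 further cells had a tie at 2 or more UMIs. The Trav rows held 41009 UMIs in all, with a median of 2 per cell. Among 33 cells without a CD4+ T cell marker UMI and with at least 2 UMIs of B cell, myeloid or kidney tubule markers, 0 called a segment, which allows a share of up to 10.4% (upper 95% Wilson bound), and 1 had any Trav UMI. Those 33 cells had a median of 4760 UMIs, against 3395 over all cells. Calling cells per block ran from 92 in kidney KO2 to 1279 in spleen WT3, so 1 cell is worth over 10 times more of the share in the former than in the latter.

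All 128 rows matched RefSeq genes of GRCm38.p6 by symbol and lie on chromosome 14 between 52427967 and 53977678, 16 of them annotated as pseudogenes. UMIs were found for 81 rows, and 47 had none: 19 of the 39 rows with the letter d, 18 of the 34 with n and 10 of the 55 with neither. Of the calling cells, 75.4% used a row with no letter, 20.9% a d row and 3.65% an n row. A read that fits several copies equally well has no single row to go to, so the split between copies is uncertain, and MRL/lpr alleles were counted against the GRCm38 genome of C57BL/6. In all 60 segments were called at least once, and 43 were carried by at least 20 calling cells and entered the tests.

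Usage was spread over many segments, with no segment above 12.9% in any block. Trav3-3 (chromosome 14, 53666005 to 53666506) had the highest mean share, 7.09% ± 1.93 (SD over the 10 blocks), and it led in kidney KO2 (10.9%, 10 of 92 cells) and kidney WT1 (6.98%). Trav4-4-dv10 (53683677 to 53684177) followed at 6.90% ± 3.57 (SD, 10 blocks) and was the leading segment of 5 blocks, kidney and spleen of KO1 and WT2 and spleen of WT1. Its shares were 8.49 and 6.52% in the kidneys of KO1 and KO2, and 5.67, 11.4 and 2.01% in those of WT1, WT2 and WT3. In spleen they were 8.64, 5.15, 7.28, 12.4 and 1.41% in the same order. WT3 was therefore below the other 4 mice in both organs, and each mouse kept its rank near the same place in kidney and spleen. Next came Trav4-3 with a mean share of 5.43%, Trav8d-1 with 4.99%, Trav14d-3-dv8 with 4.83%, Trav13-1 with 4.03%, Trav9-1 with 3.99%, Trav7-4 with 3.86%, Trav21-dv12 with 3.26% and Trav5-4 with 2.97%. Each segment in this order differed from the next by less than the larger of their SDs over blocks, which lay between 0.715 and 3.57 percentage points for these 10 segments. Trav14d-3-dv8 led in spleen KO2 (5.66%), where no segment was far above the rest.

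**Figure D1:**
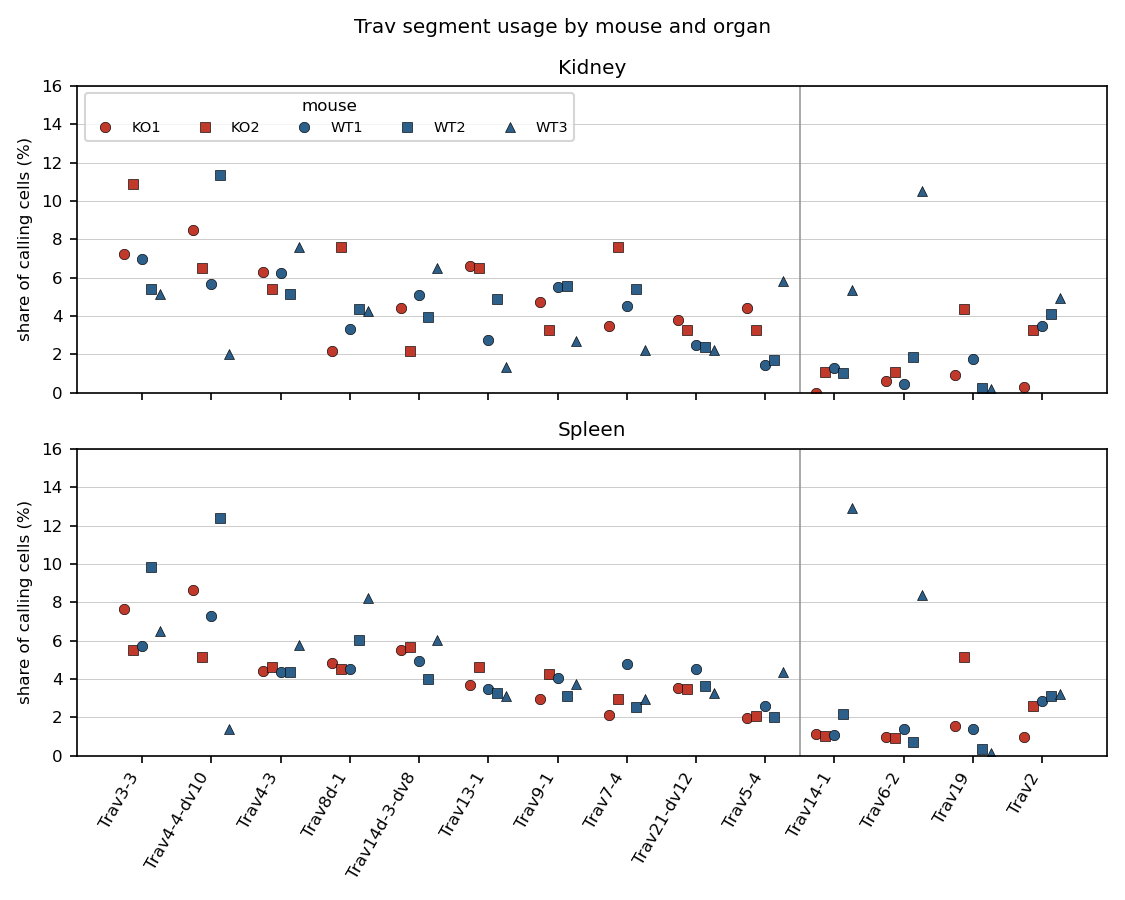
Share of calling cells (%) for the 10 segments with the highest mean share and, right of the line, 4 others the text names, in kidney (top) and spleen (bottom). Each point is 1 mouse, red for KO and blue for WT, and WT3 (triangle) lies highest for Trav14-1 and Trav6-2 and lowest for Trav4-4-dv10 in both organs.

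Calling cells were not spread evenly over the rows of the locus. With the rows in the order of their RefSeq positions and parted into 3 sections, a division chosen after the shares were seen, the 42 rows from Trav7-4 to Trav23, none of which is a d or n copy, held 56.1% of calling cells. The first 43 rows, from Trav1 to Trav8d-2, held 25.5%, and the middle 43 held 18.4%. All d and n copies lie in the first and middle sections, where 8 and 5 of 43 rows have no letter. Reads that fit several copies have no single row to go to. The part of this in the uneven spread was not tested. In kidney the last section held 64.2 and 67.4% of calling cells in KO1 and KO2 and 57.3, 60.3 and 45.9% in WT1, WT2 and WT3. The KO mice thus lay above the WT mice there, with 65.8% ± 2.29 (SD, n = 2) against 54.5% ± 7.62 (SD, n = 3). WT3 lay furthest below the KO mice, so the difference is narrower without it. The value of kidney KO2 rests on 92 calling cells, and the difference was not tested. In spleen the last section held 56.8 and 56.9% in the KO mice and 54.3, 58.8 and 53.6% in the WT mice, and the genotypes overlapped.

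**Figure D2:**
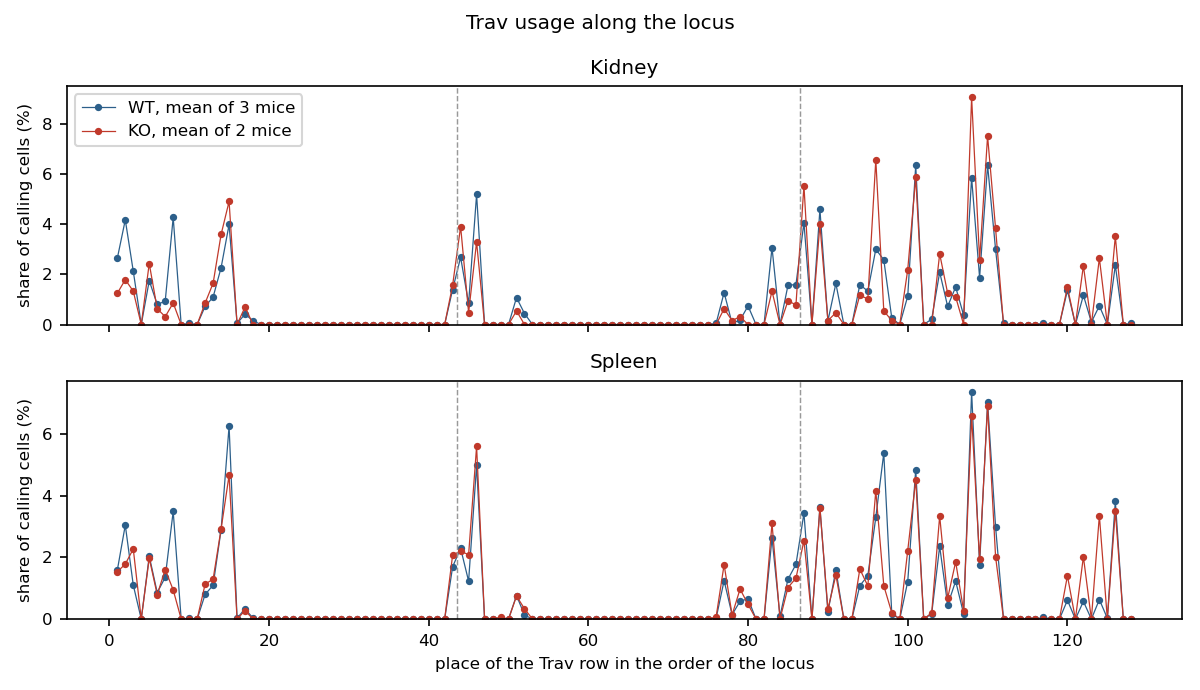
Mean share of calling cells (%) for each of the 128 Trav rows in the order of the locus, in kidney (top) and spleen (bottom), with KO (2 mice) in red and WT (3 mice) in blue; dashed lines part the 3 sections. The highest peaks stand in the last section. Long runs of rows carry no calling cells in the first and middle sections, which hold all d and n copies.

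WT3 carried a pair of segments that were rare in the other mice. Trav14-1 (53554057 to 53554558) was called by 12.9% of calling cells in its spleen (165 cells, 95% Wilson interval 11.2 to 14.8) and 5.37% in its kidney (24 cells). In the other 4 mice it lay between 0 and 2.19% in either organ. Trav6-2 (52667411 to 52667864) was called by 8.37% in the spleen of WT3 (107 cells) and by 10.5% in its kidney (47 cells), against 0.436 to 1.85% in the others. Trav14-1 leaned to the spleen of that mouse and Trav6-2 was at like shares in both organs.

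Both segments came with 1 beta segment in WT3, as read from the Trbv rows by the same call rule in an analysis chosen after the Trav shares were seen. Of the spleen cells of WT3 that called Trav14-1 and a Trbv row, 144 of 151 (95.4%, 95% Wilson interval 90.7 to 97.7) called Trbv20, against 9.04% of its other cells. In its kidney 22 of 22 did, against 6.58%. The combination Trav14-1/Trbv20 was seen in 6 cells over the other 8 blocks. Of the Trav6-2 cells of WT3, 82 of 92 in spleen (89.1%) and 26 of 33 in kidney (78.8%) called Trbv13-1, and 4 cells of other mice carried that combination. Together with Trav14-1, 67.3% of those spleen cells and 70.8% of those kidney cells also had a UMI of Trav7-4, against 4.67 and 3.07% of the other calling cells of these blocks. Of 87 cells with at least 2 UMIs of both Trav14-1 and Trav7-4, 86 came from WT3. These rows lie 92.3 kb apart with 9 Trav rows between them. Receptor sequences were not analysed here, so cells that share an alpha and a beta segment are not shown to share a receptor.

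KO2 had 1 combination of the same kind. Trav19 was called by 5.15% of calling cells in its spleen (40 cells) and 4.35% in its kidney, against 0.156 to 1.74% in the other 4 mice. Of its spleen cells with both calls, 30 of 35 (85.7%, interval 70.6 to 93.7) paired it with Trbv13-3, 2 kidney cells of KO2 did so, and no cell of another mouse did. Igfbp4, one of the fixed naive T cell markers, had a UMI in 5.00% of these Trav19 cells and in 34.9% of the other calling cells of that spleen.

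**Figure D3:**
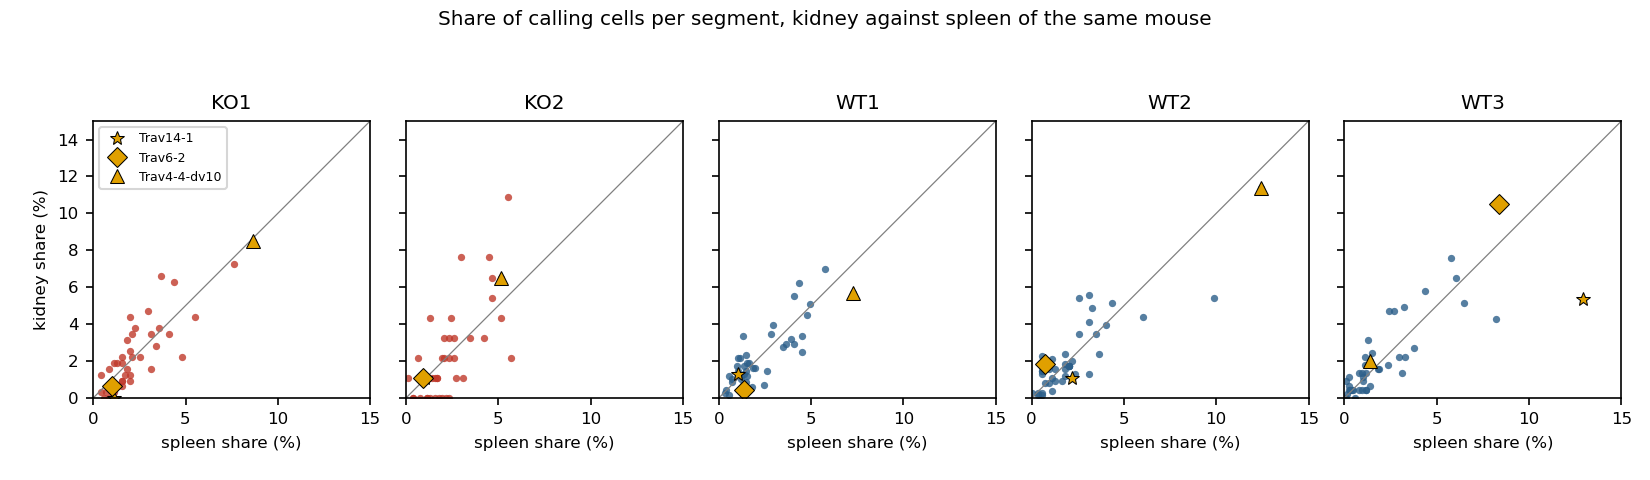
Share of calling cells in kidney (y axis, %) against spleen (x axis, %) for the 43 tested segments, 1 panel per mouse; the line marks equal shares and 3 segments have gold symbols. Trav14-1 and Trav6-2 sit near the origin in the other 4 mice and far from it in WT3, where Trav4-4-dv10 sits low.

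Usage of kidney and spleen was more alike within a mouse than between mice. Likeness was measured with the Morisita index, which is 0 where 2 blocks share no segment and about 1 where they use segments in the same proportions. Kidney and spleen of the same mouse gave 0.964 ± 0.0319 (SD, n = 5 mice), with a range of 0.910 to 0.992. The 20 pairs from different mice gave 0.845 ± 0.137 (SD), with a range of 0.616 to 0.996. Over all 120 ways to pair the kidneys with the spleens, the exact two-sided permutation p was 0.0167. The kidney was most like its own spleen in 4 of 5 mice, and the spleen was most like its own kidney in 3 of 5. The p rests on WT3: without it the means were 0.978 within and 0.9503 between mice, with p = 0.125 by the same exact test, and it was 0.0833 without KO1 and without WT2.

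**Figure D4:**
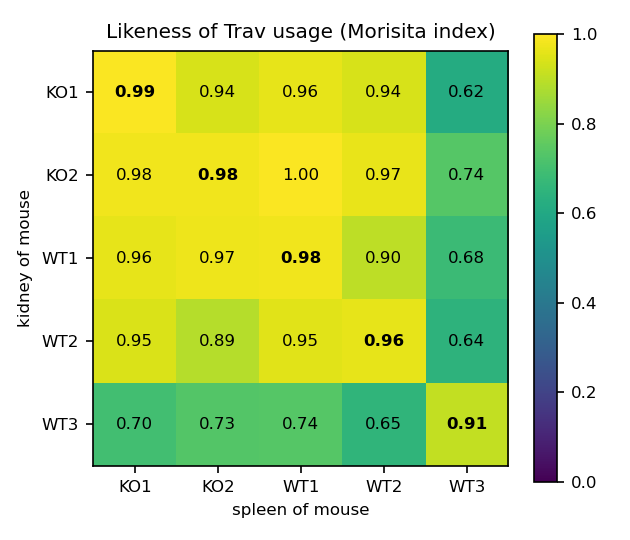
Morisita index of Trav usage between each kidney (rows) and each spleen (columns), with same-mouse pairs on the diagonal in bold. The row and column of WT3 hold the lowest values, down to 0.62, and its own pair stands at 0.91.

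Between genotypes, no segment passed the threshold of 0.05 after Benjamini-Hochberg adjustment over the 43 segments. With 2 KO and 3 WT mice the exact two-sided permutation test cannot go below 0.1, so no segment could have reached p = 0.05 even before adjustment. Kidney shares of KO and WT mice did not overlap for 9 of 43 segments (20.9%), 5 higher and 4 lower in KO, and spleen shares for 10 of 43 (23.3%), 8 higher and 2 lower. Among the 20 Trbv segments with as many cells, the shares did not overlap for 7 (35.0%) in kidney and 3 (15.0%) in spleen.

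Trav2 was lower in KO mice in both organs. Its shares in kidney were 0.314 and 3.26% in KO1 and KO2 against 3.49, 4.10 and 4.92% in WT1, WT2 and WT3, a difference of -2.38 percentage points, which was -0.909 without KO1 and -3.86 without KO2. In spleen they were 0.992 and 2.57% against 2.83, 3.10 and 3.21%, a difference of -1.26. The KO mice differed more from each other than the nearer of them did from WT1. The kidney shares of Trav2 rest on 1 cell in KO1 and 3 of 92 calling cells in KO2. In kidney KO2 1 cell is worth 1.09%, so 1 more Trav2 cell would bring that block into the WT range. Trav13-1, Trav9-2 and Trav17 were higher in KO mice in both organs, and like Trav2 they were picked out after their values were seen. Trav13-1 stood at 6.60 and 6.52% in KO kidneys and 2.76, 4.89 and 1.34% in WT kidneys. In spleen Trav13-1 stood at 3.68 and 4.63% against 3.48, 3.28 and 3.13%. Trav17 stood at 2.52 and 2.17% against 1.02, 1.59 and 0.895% in kidney, and at 1.98 and 2.06% against 0.728, 0.912 and 0.0782% in spleen. For Trav9-2 the means were 2.19% in KO and 1.13% in WT kidneys, and 2.22 and 1.22% in spleens. In kidney KO2 Trav13-1, Trav17 and Trav9-2 rest on 6, 2 and 2 cells. There 1 cell fewer of Trav17 or of Trav9-2 would make the genotypes overlap. The exact permutation p of Trav2, Trav13-1, Trav9-2 and Trav17 was 0.1 or 0.2 in each organ, 0.86 after adjustment in kidney and 0.717 in spleen. Trav7-5 did not overlap in either organ either, but it was lower in KO kidneys and higher in KO spleens. Its shares were 1.26 and 1.09% against 1.31, 2.12 and 1.34% in kidney, and 1.70 and 1.54% against 1.38, 1.09 and 0.782% in spleen. Both organs come from the same mice, so a like direction in the second organ is not independent of the first.

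Most of the other large differences also depended on 1 mouse. Trav6-2 and Trav14-1 had differences of -3.41 and -2.04 percentage points in kidney and -2.54 and -4.30 in spleen, and without WT3 these were -0.286, -0.640, -0.106 and -0.539. Trav19 had a difference of 2.72 points in spleen and 1.90 in kidney, and without KO2 these were 0.926 and 0.199. Trav3-3 was higher in KO kidneys, with 7.23 and 10.9% against 6.98, 5.42 and 5.15%, a difference of 3.203 points that was 1.38 without KO2, while its spleen shares overlapped. Trav3-1 was higher in KO spleens by 1.17 points, or 0.741 without KO2, and overlapped in kidney. Trav8d-1 differed by -1.59 points in spleen with overlap, and by -0.616 without WT3.

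Levels were tested as well, on UMIs summed per block with edgeR's quasi-likelihood test (TMM scaling, Benjamini-Hochberg adjustment over all genes tested). A summed level cannot tell fewer cells with a segment from fewer UMIs per cell. No Trav row of 54 tested passed an adjusted p of 0.05 between KO and WT in spleen, where 0.239% of all genes tested did. An unadjusted p under 0.05 was found for 4 Trav rows, and for 1973 of all 11698 genes. In kidney 0 of 48 passed, where 0% of all genes did. Again 4 Trav rows had an unadjusted p under 0.05, as had 966 of all 10486 genes. CPM values of KO and WT mice did not overlap for 12 Trav rows in spleen (22.2%, against 38.6% of all genes) and 9 in kidney (18.8%, against 29.8%). Trav2 had a fitted log2 fold change of -1.22 ± 0.45 (SE, adjusted p = 0.252) in spleen, and one of -2.12 ± 0.58 (SE) in kidney with an adjusted p of 0.457. Trav19 had 2.12 ± 0.66 (SE, adjusted p = 0.199) in spleen, and DESeq2 gave it an adjusted p of 0.0448, its only call among the Trav rows there. Over the tested Trav rows the median log2 fold change was -0.01 in spleen and -0.12 in kidney, against -0.01 for all genes in each organ.

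WT1 decides how many rows pass. Without it 7 Trav rows passed in spleen by the edgeR test. Trav9-2, Trav17 and Trav19 were higher in KO, and Trav2, Trav5-4, Trav8d-1 and Trav14n-3 were lower. In kidney 1 row, Trav2, passed with a log2 fold change of -2.41. The share of all genes that passed without WT1 is not given here, so these counts cannot be set against it. For the difference of the genotype effect between organs, 0 of 54 rows passed, where 0.0331% of all genes did. An unadjusted p under 0.05 was found for 993 of all 12072 genes and for 5 Trav rows. The smallest of these belonged to Trav4-2, with -1.47 ± 0.39 (SE, adjusted p = 0.317). Trav4-2 stood at 1.57 and 1.09% in KO kidneys against 2.91, 1.59 and 4.70% in WT kidneys, and its spleen shares overlapped.

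The cells of the genotypes differed in state, and the part of this in Trav usage was not tested. Igfbp4, a gene of naive T cells, had a UMI in 48.0 and 32.7% of the spleen cells of KO1 and KO2 and in 2.47, 2.93 and 1.49% of those of WT1, WT2 and WT3. UMIs of the 5 cytotoxic and exhausted markers (Havcr2, Gzmb, Ccl3, Ccl4 and Ifng) made up 2.31 to 3.88 of 10000 UMIs in KO spleens and 11.7 to 40.2 in WT spleens, and 5.24 to 6.73 against 8.23 to 16.2 in kidneys. The 2 CD8 markers (Cd8a and Cd8b1) were found in 11.7 to 15.98% of KO kidney cells and 2.64 to 4.604% of WT kidney cells, and in 4.53 to 9.11% against 1.95 to 3.39% of spleen cells. B cell marker UMIs made up 1.13 to 1.28 of 10000 in KO kidneys and 2.77 to 3.45 in WT kidneys, and 1.31 to 2.14 against 3.03 to 4.17 in spleens. By the share of cells with such a UMI the genotypes overlapped. It was 14.6 to 15.9% in KO and 14.0 to 52.2% in WT kidneys, and 14.0 to 23.5% against 19.8 to 53.1% in spleens. Without cells that had a CD8 UMI or at least 2 UMIs of B cell, myeloid or tubule markers, 0 Trav rows still passed between genotypes in either organ.

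Evenness of usage was measured as the chance, in percent, that 2 calling cells drawn from a block share a segment, so a higher value means more uneven usage. In spleen it was 3.47 and 3.07% in KO1 and KO2 and 3.32, 4.43 and 5.27% in WT1, WT2 and WT3. The mean difference was -1.07 points (exact two-sided permutation p = 0.3) and -0.603 without WT3, and WT1 lay between the KO mice. In kidney it was 3.75 and 3.97% in the KO mice and 3.27, 4.002 and 4.33% in the WT mice, with a difference of -0.01 points (exact permutation p = 1). A second segment with at least 2 UMIs was found in fewer calling cells of KO mice in both organs. In kidney 11.9 and 6.52% of calling cells had one in KO1 and KO2, against 12.9, 13.9 and 15.2% in WT1, WT2 and WT3. In spleen 13.3% of calling cells had one in KO1 and also in KO2, against 17.6, 19.7 and 19.3% in the WT mice. The groups did not overlap, and the exact two-sided permutation p was 0.1 in each organ, the smallest this design allows. The value of kidney KO2 rests on 6 cells. In WT3, Trav14-1 with Trav7-4 made up 75 of the 247 such cells in spleen and 11 of the 68 in kidney. The copy pair Trav14d-3-dv8 with Trav14n-3 made up 18 and 7 of them, and at most 5 in any block of another mouse. The shares without these pairs are not given here, and the difference between genotypes was not tested without them. Trav UMIs per cell were also lower in KO mice, with 2.29 and 2.23 in kidney against 2.503, 3.01 and 2.81, and 3.04 and 2.91 in spleen against 3.19, 3.91 and 3.68. The part of detection in the share with a second segment was not tested.

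**Figure D5:**
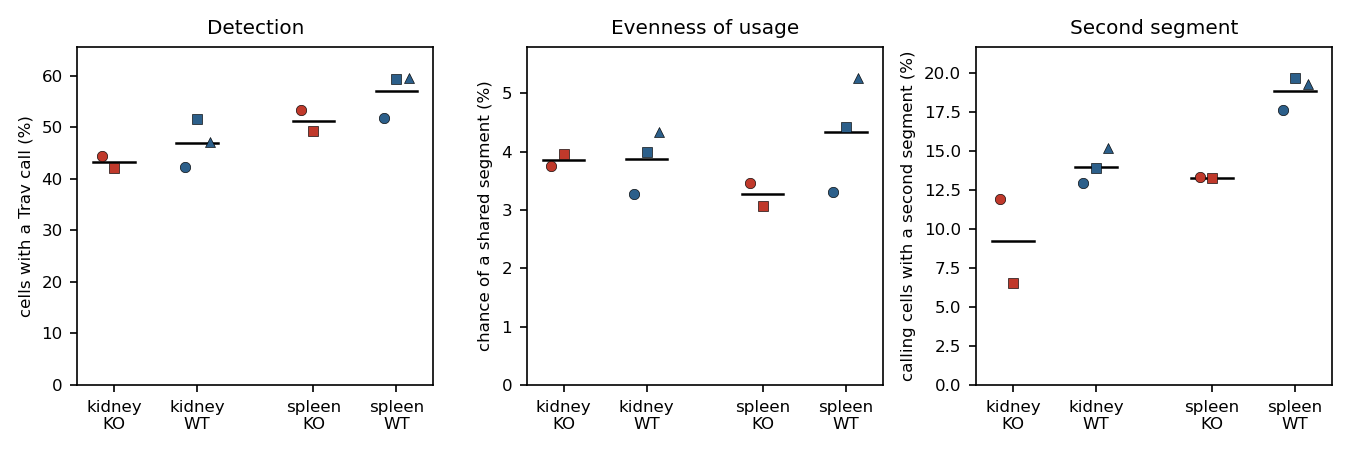
Cells with a Trav call (left, % of cells), chance that a pair of calling cells share a segment (middle, %) and calling cells with a second segment at 2 or more UMIs (right, %), by organ and genotype. Each point is 1 mouse and bars mark group means; in the right panel the KO mice lie below the WT mice in both organs.

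Second segments were of several kinds. Over 449 distinct pairs in 1076 cells, 67 cells held rows that differ only by the copy letter, and the pair Trav14d-3-dv8 with Trav14n-3 was found in 41 cells and in all 5 mice. Trav3-3 with Trav9-4, neighbours in the locus 9.69 kb apart, was found in 13 cells and in all 5 mice, as was Trav3-3 with Trav13-1 in 10 cells. Trav4-4-dv10 with Trav13n-4, in contrast, was found in 11 cells of WT2 and 2 of WT1 and in no other mouse.

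Between organs, fewer kidney cells called a segment. The share was 45.5% ± 3.98 (SD, n = 5) in kidney and 54.7% ± 4.67 (SD, n = 5) in spleen, with a mean difference of -9.20 points and the kidney lower in 5 of 5 mice (exact two-sided sign-flip permutation p = 0.062, the smallest 5 pairs allow). Thinned to 2000 UMIs per cell, which left out shallower cells and kept 201 to 1463 cells of a kidney block and 859 to 2098 of a spleen block, the shares were 28.0 and 35.9%, again lower in 5 of 5 mice. The share of cells with a UMI of Trac, the alpha constant region, was also lower in kidney, with 48.6% ± 4.54 against 58.7% ± 5.53 (SD, n = 5 each). KO and WT mice overlapped in the share that called a segment, with means of 43.2 and 47.0% in kidney (exact permutation p = 0.4) and 51.3 and 56.9% in spleen (p = 0.3 by the same exact test). After thinning, which was 1 random draw, they did not overlap in either organ. In kidney, however, KO1 (25.72%) and WT1 (25.84%) nearly met. Thinned kidney shares were 25.7 and 19.9% in KO1 and KO2 against 25.8, 33.4 and 35.0% in WT1, WT2 and WT3 (exact permutation p = 0.2). Thinned spleen shares were 33.5 and 31.7% against 34.9, 37.5 and 42.0% (exact permutation p = 0.2). Cells with a Trac UMI did not overlap either, with means of 44.7% in KO and 51.2% in WT kidneys and 53.3 and 62.3% in spleens.

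Among the calling cells, Trav4-3 was used more in kidney in each of the 5 mice. Its kidney shares were 6.29, 5.43, 6.25, 5.16 and 7.61% in KO1, KO2, WT1, WT2 and WT3, and its spleen shares 4.39, 4.63, 4.37, 4.38 and 5.79%. The difference was 1.44 points and stayed between 1.32 and 1.60 when any 1 mouse was left out. Trav17 was also higher in kidney in all 5 mice, by 0.486 points, and Trav13d-4, Trav7-1 and Trav13n-4 were lower in all 5, with differences between -0.878 and -0.502 points. These 5 of 43 segments (11.6%) had the smallest exact p, 0.062, which was 0.538 after adjustment, so 0 segments passed. Among the Trbv segments 2 of 20 (10.0%) ran one way in all 5 mice. Trav7-4, with a difference of 1.57 points, was above Trav4-3 in size, and Trav16d-dv11 followed with 0.913, but mice differed in sign and without KO2 the values were 0.8004 and 0.376. Trav14-1 and Trav8d-1 had differences of -1.90 and -1.26, also with mice of either sign, and without WT3 these were -0.488 and -0.589. For Trav13d-4 the difference was -0.550 without KO2. Evenness did not separate the organs, with 3.86% ± 0.393 in kidney and 3.91% ± 0.918 in spleen (SD, n = 5 each, exact permutation p = 0.8125).

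By summed levels, 4 of 51 tested Trav rows (7.84%) passed the edgeR test between the organs with the mouse as a block, all lower in kidney, where 33.6% of all genes tested passed. Trav13n-4 had the largest change, a log2 fold change of -1.32 ± 0.25 (SE, adjusted p = 0.00452). Its levels were 7.05, 2.37, 2.23, 4.57 and 1.18 CPM in the kidneys of KO1, KO2, WT1, WT2 and WT3. In their spleens they were 11.8, 3.36, 5.72, 17.2 and 3.16, so the kidney was lower in each mouse. This n copy had 315 UMIs and 34 calling cells over all blocks, with 0 calling cells in kidney KO2 and in kidney WT3. The kidney levels of those mice are near the floor. Trav14-1 had -0.86 ± 0.24 (SE, adjusted p = 0.0219), but in WT1 it was higher in kidney, and it did not pass without WT2 or without WT3. Trav7d-4 had -0.62 ± 0.15 (SE, adjusted p = 0.0142) and Trav21-dv12 -0.48 ± 0.14 (SE, adjusted p = 0.0272). Without WT1 neither passed, with edgeR adjusted p of 0.057 and 0.103, nor without cells that had CD8, B cell, myeloid or tubule markers, with 0.361 and 0.18, where Trav7d-4 had a log2 fold change of -0.26. Trav21-dv12 also did not pass without WT3 (edgeR adjusted p = 0.0969) or by DESeq2 (adjusted p = 0.0664). The median over the tested Trav rows was -0.19, against -0.04 over all genes, in the direction of the lower call rate of kidney cells. CPM values ran one way in all 5 mice for 4 Trav rows (7.84%), against 40.3% of all genes. Without the mouse as a block 1 row passed, Trav21-dv12, and the share of all genes in that fit is not given here.

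Havcr2, which encodes the inhibitory receptor TIM-3, was used to pick cells of the cytotoxic and exhausted kind, and cells with at least 1 UMI were called positive. It had a UMI in 9.51% of all cells and in 1 of the 33 cells without T cell markers (3.03%). Comparisons were made in blocks with at least 20 positive calling cells, which for Havcr2 left 4 mice in each organ. In the spleen of WT3, 43 of 243 positive calling cells (17.7%, 95% Wilson interval 13.4 to 23.0) used Trav8d-1, against 5.98% (4.70 to 7.60) of the negative ones. In that spleen 52 of 93 Trav8d-1 cells with a beta call (55.9%) used Trbv31, and 41.0% of the Trav8d-1 cells had a Havcr2 UMI, against 17.0% of the other calling cells. Trav8d-1 also led in Havcr2-positive cells of the kidney of WT3, with 4 of 41 cells (9.76%). The other leading segments of Havcr2-positive cells were Trav4-4-dv10 in the spleens of KO2 (4 of 26 cells) and WT2 (15 of 131), Trav21-dv12 in spleen WT1 (8 of 105), Trav12-3 in kidney WT1 (7 of 71), Trav7-4 with 1 other at 10 of 119 in kidney WT2 and Trav16d-dv11 with 3 others at 3 of 28 in kidney KO1. No segment led in all mice. Trav14d-3-dv8 was lower in Havcr2-positive kidney cells in 4 of 4 mice, with a mean of 1.33 against 5.39%, and Trav7-3 was higher in 4 of 4, with 4.198 against 1.37%. The Trav7-3 values rest on 2, 1, 4 and 2 positive cells in KO1, WT1, WT2 and WT3. Those of Trav14d-3-dv8 rest on 0, 2, 3 and 0 in the same order. In spleen Trav7-3 was lower in positive cells in 3 of 4 mice, with 0.855 against 1.19%. Trav14d-3-dv8 was also lower there in 3 of 4, with 2.75 against 5.53%. In all, 9 of 43 segments (20.9%) ran one way in all 4 mice in kidney and 6 (14.0%) in spleen, against 4 of 20 Trbv segments (20.0%) in each organ. The smallest exact p that 4 mice allow is 0.125, and the smallest adjusted p was 0.597 in kidney and 0.672 in spleen.

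Foxp3 encodes the transcription factor of regulatory T cells, and it had a UMI in 9.14% of all cells and in 0 of the 33 cells without T cell markers. Positive calling cells were too few in WT2 in either organ (4 in kidney and 3 in spleen), so the spleen comparison held KO1, KO2, WT1 and WT3, and the kidney had values for KO1 and WT1 alone. Trav4-4-dv10 led in the Foxp3-positive spleen cells of KO1 (8.18%, 9 cells) and WT1 (8.68%, 25 cells), Trav3-3 in those of KO2 (8.05%, 14 cells) and Trav14d-3-dv8 in those of WT3 (5 of 36 cells). In kidney Trav3-3 led in KO1 (5 of 27 cells) and Trav4-2 in WT1 (4 of 54 cells). In spleen 9 of 43 segments (20.9%) ran one way in 4 of 4 mice, 3 higher and 6 lower in positive cells, against 4 of 20 Trbv segments (20.0%). Trav3-1 had 3.82 against 1.49% and Trav13d-4 0.545 against 1.90%, as means over the mice. In KO1, KO2 and WT1 the positive cells were 5, 6 and 5 for Trav3-1 and 1, 1 and 2 for Trav13d-4. None passed, with an adjusted exact p of at least 0.597. The chance that 2 cells share a segment was lower in Foxp3-positive than in negative cells in 3 of 4 mice, with a mean difference of -0.471 points (exact permutation p = 0.25). It was -0.216 without WT3, -0.727 without WT1, and 0.103 without cells that had CD8, B cell, myeloid or tubule markers.

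Igfbp4, a gene of naive T cells, had a UMI in 11.1% of all cells, and in 6 of the 33 cells without T cell markers (18.2%, 95% Wilson interval 8.61 to 34.4), so 1 UMI of it is weak ground for calling a cell positive. Its positive cells were common in the spleens of KO1 (343 calling cells) and KO2 (259) and few in WT1 (29) and WT3 (20). Trav3-3 led in positive spleen cells of KO1 with 9.62% (33 cells) against 5.79% of negative ones, and Trav13-1 in those of KO2 with 6.56% (17 cells) against 3.67%. The intervals of positive and negative cells overlapped in both. Trav9-1 led in WT3 with 5 of 20 cells, Trav8d-1 with 4 others at 3 of 29 cells in WT1, and Trav8d-2 with 1 other at 4 of 35 in the kidney of KO1. In spleen 7 of 43 segments (16.3%) ran one way in 4 of 4 mice, against 3 of 20 Trbv segments (15.0%). The smallest adjusted exact p was 0.717.

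Segments of invariant receptors had few UMIs or few calling cells. Trav11, the segment of invariant natural killer T cells, had 1 UMI, Trav11d had 0 and Trav11n had 4 over all blocks, and no cell called any of them. These rows are copies of each other, so reads that fit several of them may be missing from all. Trav1, the segment of mucosal-associated invariant T cells, was called by 126 cells, with a mean share of 1.82% and a range from 0.314% in kidney KO1 to 4.70% in kidney WT3. Zbtb16, the transcription factor of such cells, had a UMI in 0 of them and in 35 of all 13337 cells, too few to show whether it was present in the Trav1 cells. Of the DV segments, Trav4-4-dv10, Trav14d-3-dv8, Trav21-dv12 and Trav16d-dv11 were called by 444, 353, 230 and 171 cells, Trav15-2-dv6-2 by 17, Trav15-1-dv6-1 by 13, Trav13-4-dv7 by 3 and Trav6-7-dv9 by 1, and Trav15d-1-dv6d-1 and Trav15d-2-dv6d-2 had no UMI. Trdc, the delta constant region, was found in 1.98% of cells that called Trav14d-3-dv8, 2.17% of those that called Trav21-dv12 and 3 of the 17 that called Trav15-2-dv6-2, against 0.554 to 0.586% of the other calling cells. For Trav16d-dv11 and Trav4-4-dv10 it was 1.17 and 0.450%, with 2 cells each.

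The other genes of the receptor pathway were read from the same fits, in a list of 20 (constant regions, CD3 chains, coreceptors, proximal signalling genes and recombination genes). Of 17 members tested in spleen and 15 in kidney, 0 passed between KO and WT, with 7 and 5 at an unadjusted p under 0.05 (1973 of 11698 and 966 of 10486 of all genes were) and medians of -0.16 and -0.24 (log2). Between organs 4 of 15 passed, where 33.6% of all genes did, 2 higher and 2 lower in kidney. Cd28, the costimulatory receptor, rose in kidney by 0.54 ± 0.08 (log2, SE, edgeR adjusted p = 0.00141). Trac fell by 0.25 ± 0.06 (log2, SE, adjusted p = 0.0141) and Cd3d, a CD3 chain, by 0.21 ± 0.07.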

How the data were processed

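Per the file headers, the deposited tables hold UMI counts per gene and cell from Cell Ranger 7.1.0, 1 table per organ, with no normalization recorded; per the submitters' processing notes, Seurat 5.0.1 and mm10 (GRCm38) were also used, and no other setting is recorded there. Each table joins 9 blocks of barcodes. The 10 blocks of the first day, each led by 1 antibody tag, were given mouse, organ and genotype through the deposited tag key, whose entries were matched to tag numbers by their order, since neither names the other; GEO's samples name no mouse. Under this match every tag fell in the organ its entry gives, and all genotype and same-mouse values rest on it. Blocks of the second day entered no comparison. Cells with fewer than 200 genes, or with 10% or more of their UMIs mitochondrial, were left out. No doublet caller was run. Counts were summed per block for edgeR 4.0.16 (R 4.3.3; filterByExpr), and shares were compared over mice by exact permutation, tested on simulated data. Nothing says that blocks were prepared apart beyond their tags. Intervals cover counting error only. Members, gene lists and tests were chosen with earlier results of these data known. The named segments are the 10 with the highest mean share, the leader of each block and of each marker-positive block, every edgeR call, the 3 largest differences each way, and the invariant and DV segments. Alternatives were other call and marker minimums, merged copies, other scalings, filters and tests, fewer cells, and each mouse left out. Kidney and spleen are paired because they come from the same mouse, per the tag key. No Trav sequence was at hand, so none is printed. Some results on genes outside the Trav rows are not reported here.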

Additional observations from a re-analysis of the deposited data

Results flagged for a closer look

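Trav calls were also found in data that no comparison uses. The 8 blocks of the second day hold 17523 entries of 2399 distinct barcodes, repeated under several mice and both organs, and 2392 distinct cells passed the same filters. Of these, 37.8% called a Trav segment (905 cells, 95% Wilson interval 35.9 to 39.8). Trav4-4-dv10 led with 8.84% and Trav3-3 followed with 6.41%. The Morisita index with the first-day blocks was highest for spleen KO1 (0.999) and kidney KO1 (0.997) and lowest for spleen WT3 (0.692). The combinations Trav14-1/Trbv20 and Trav6-2/Trbv13-1 were in 0 of the 626 cells with both calls. Trav19/Trbv13-3, seen in KO2 alone among the first-day blocks, was in 2 of them, and Trav8d-1/Trbv31 was in 1. Of the 2392 barcodes, 30 also occur in the first-day blocks. Which mouse these cells came from is not settled by the labels.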

How the results depend on the processing

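With each mouse left out, edgeR calls among the Trav rows lay between 0 and 7 for KO against WT in spleen, 0 and 1 in kidney, 2 and 6 for kidney against spleen and 0 and 1 for the interaction, the highest of each without WT1 and the 2 without WT3. For kidney against spleen, 8 rows passed with no filter on low counts, 7 without CD8, B cell, myeloid and tubule marker cells, and 1 with no replicate block (genotype in place of the mouse); 3 passed in the interaction with no filter, and 1 in spleen KO against WT by DESeq2. The share of all genes that passed in these settings, or with a mouse left out, is not given here. These counts of Trav rows can therefore not be set against it. Evenness had no settled sign where its p was high. KO minus WT in kidney was 0.650 at 3 UMIs for a call, and -0.310 to 0.223 with a mouse left out. Kidney minus spleen was 0.111 at 3 UMIs and 0.0372 with copies summed, and -0.283 to 0.176 with a mouse left out. Havcr2 in kidney was 0.114 at 1 UMI, 0.431 without the marker cells, 0.336 with markers at 2 UMIs, and -0.485 to 0.1497 with a mouse left out, and Foxp3 in spleen was 0.103 without the marker cells. Likeness within a mouse lay between 0.957 and 0.978 with a mouse left out, and its exact p rose above 0.05 without KO1, WT2 or WT3. No segment share passed in any setting, and none could have, since the exact tests cannot reach 0.05 with this few mice. No named difference of shares changed sign. The cause of these changes was not tested. Depth limits kidney KO2 most, where 0 of 92 calling cells allows a share of up to 3.26%.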
